A study of Mus musculus with 21 samples.

Results

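Gastric foveolar genes and mucins were followed in tumour cells of 2 mouse pancreatic cancer clones whose lines are labelled EPHA2-WT or EPHA2-KO. The 10 genes were Tff1, Tff2, Tff3, Gkn1, Gkn2, Muc1, Muc5ac, Muc6, Anxa10 and Ctse, taken by symbol from the 24623 symbols of the expression table. Tff1, Tff2, Gkn1 and Gkn2 had been picked because earlier results of these data showed opposite differences in the 2 clones, so their KO against WT values are a description and carry no test. The other 6 genes completed the group by function. Of the 10 genes, 9 reached 1 TPM in at least 3 libraries and were among the 14337 genes tested, and Muc6 did not.

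EPHA2 is a receptor tyrosine kinase, and the clones are called 6694c2 and 6419c5. All cells had been placed under the skin of C57BL/6 mice, and sorted tumour cells were prepared from the tumours 3 weeks later, with no treatment in any group. Each clone had 1 line here called WT, whose titles carry the clone name alone, and 2 lines labelled EPHA2-KO. There were 12 libraries of 6694c2 (4 each of WT, KOA and KOB) and 9 libraries of 6419c5 (3 each). The table letters the KO lines A and B, the labels number them, and no source ties the letters to the numbers. How EPHA2 was edited, the age of the mice and whether each library stands for its own mouse are not given in the sources used here. A p-value therefore measures the spread between these libraries, which may be technical, and since a clone has a single WT line and 2 KO lines, a KO effect and other differences between lines cannot be told apart.

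Foveolar cells, also called pit cells, line the surface of the stomach and secrete a protective mucus. The gel of that mucus is built from the large secreted mucin MUC5AC, and small trefoil factors and gastrokines are secreted with it. The normal pancreatic duct expresses little of this programme, while precursor lesions and well-differentiated tumours of the pancreas often express it. TPM is a relative abundance scaled by transcript length, so it can be compared between genes, but it keeps no read number and the depth of each library is unknown.

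The genes lie in few places of the genome (mm10). Tff3, Tff2 and Tff1 sit side by side on the minus strand of chromosome 17, from 31125306 to 31165060, a span of 39.8 kb. Gkn1, on the minus strand, and Gkn2, on the plus strand, share chromosome 6 from 87345653 to 87379494, and their start sites are 22.4 kb apart. Muc6, on the minus strand, and Muc5ac, on the plus strand, bound a 186 kb stretch of chromosome 7 from 141633459 to 141819227. Muc1 is on chromosome 3 from 89229056 to 89233381, Anxa10 on chromosome 8 from 62057042 to 62123193 and Ctse on chromosome 1 from 131638314 to 131675507. The annotated gene bodies range from 3221 bases for Tff2 to 66152 bases for Anxa10, and the number of exons in the longest transcript from 3 for Tff1 and Tff3 to 49 for Muc5ac.

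RefSeq promoter windows of GRCm38.p6, the assembly called mm10, were matched for 5 of the 10 genes: Anxa10, Gkn1, Gkn2, Muc1 and Muc6. Those of Gkn1 and Gkn2 are shown because these neighbours were picked together and are read in opposite directions. Those of Muc1 and Anxa10 are shown because both genes had their highest line mean in KOB of 6419c5, where the gastrokines were low. Each runs from 250 bases before to 30 bases after the annotated start, in the direction of the gene. Gkn1 is at chr6:87350886-87351165 (minus strand), Gkn2 at chr6:87373115-87373394 (plus), Muc1 at chr3:89228806-89229085 (plus) and Anxa10 at chr8:62123164-62123443 (minus). Capitals mark matches on either strand to 4 short motifs, of which none overlapped another. These were TATAAA, the core promoter element, then AGATAA, which zinc finger factors of the GATA family bind, TGTTTAC, which forkhead proteins bind, and TGANTCA, which AP-1 proteins bind.
Gkn1: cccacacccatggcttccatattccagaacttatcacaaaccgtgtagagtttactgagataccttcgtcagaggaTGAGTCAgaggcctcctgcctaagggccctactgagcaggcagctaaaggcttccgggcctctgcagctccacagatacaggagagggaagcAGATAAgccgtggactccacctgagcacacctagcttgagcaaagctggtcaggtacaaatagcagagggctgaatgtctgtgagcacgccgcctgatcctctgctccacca
Gkn2: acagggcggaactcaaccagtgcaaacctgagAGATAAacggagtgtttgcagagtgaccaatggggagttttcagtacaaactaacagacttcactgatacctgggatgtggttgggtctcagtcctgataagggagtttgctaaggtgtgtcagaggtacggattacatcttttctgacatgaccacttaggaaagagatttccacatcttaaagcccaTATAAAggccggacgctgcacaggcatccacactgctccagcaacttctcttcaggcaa
Muc1: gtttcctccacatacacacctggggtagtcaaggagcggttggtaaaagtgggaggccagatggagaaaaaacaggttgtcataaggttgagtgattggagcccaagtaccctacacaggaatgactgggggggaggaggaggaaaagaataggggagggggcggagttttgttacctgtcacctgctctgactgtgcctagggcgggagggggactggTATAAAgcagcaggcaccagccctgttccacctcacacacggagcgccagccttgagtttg
Anxa10: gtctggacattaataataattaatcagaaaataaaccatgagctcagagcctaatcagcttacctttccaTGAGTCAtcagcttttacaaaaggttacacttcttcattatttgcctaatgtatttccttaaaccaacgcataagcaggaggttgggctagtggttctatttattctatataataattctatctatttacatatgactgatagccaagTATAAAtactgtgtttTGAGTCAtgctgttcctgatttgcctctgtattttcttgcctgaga

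TATAAA was found in Gkn2 at position −29 from the start, in Muc1 at −31 and in Anxa10 at −32, and in 13.1% of 32851 promoter windows of the same length. AGATAA was found in Gkn1 at −82, Gkn2 at −218 and Muc6 at −194, and in 10.7% of all windows. TGANTCA was found in Gkn1 at −174 and in Anxa10 at −180 and −16, and in 7.46% of all windows. TGTTTAC, held by 3.49% of all windows, had no match in the 5 genes. These are matches of letters only, and no match says only that the letters are not in the window.

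Between 12437 and 13316 genes reached 1 TPM per library. Epha2 was at 239.9 to 251.9 TPM in WT of 6694c2 and at 88.0 to 129.7 TPM in its 8 KO libraries, all below WT. In 6419c5 it was at 163.6 to 190.4 TPM in WT, 143.8 to 155.6 in KOA and 169.7 to 220.8 in KOB, so the transcript was not lower in the line labelled KOB. KOA and KOB of 6419c5 are thus named by their labels only. Tumour epithelial markers summed to 6471 to 8938 TPM in every line of 6694c2, and in 6419c5 to 5754 to 7648 TPM in WT against 12349 to 16403 TPM in the KO lines. None of the 8 genes of that list was at 0 in any line. Gastric parietal, chief and endocrine markers summed to 3.14 to 14.8 TPM in all libraries, with Gif, the gene of intrinsic factor, at most at 0.0607 TPM. Mir6236 was highest in KOB library 4 of 6694c2 (145023 TPM) and WT library 3 of 6419c5 (91142 TPM), against at most 54492 TPM elsewhere.

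**Figure D1:**
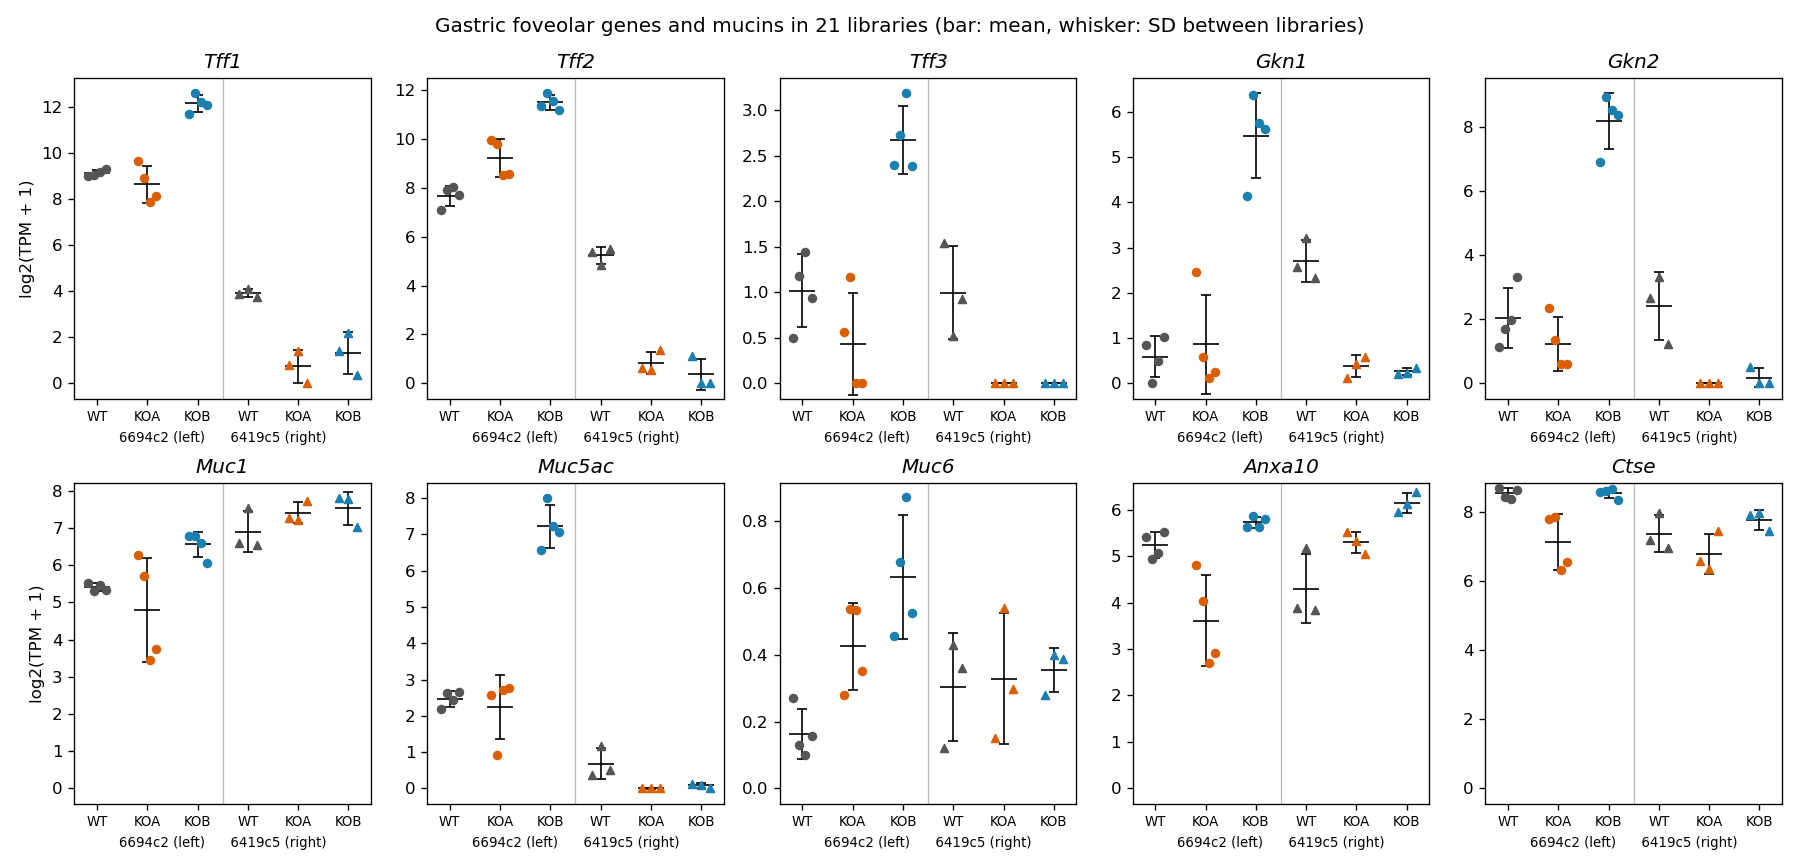
Level of each of the 10 genes on the log2(TPM + 1) scale in 21 libraries, by line; circles are 6694c2 (4 libraries a line), triangles 6419c5 (3 a line), bars the mean and whiskers the SD between libraries. The 4 KOB libraries of 6694c2 lie above WT for every gene but Ctse, and in 6419c5 the trefoil factors and gastrokines lie lower in both lines labelled EPHA2-KO than in WT.

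Trefoil factors are small secreted peptides that bind mucins and promote the repair of the mucosal surface. Tff1 and Tff2, the gastric ones, were among the more abundant transcripts of 6694c2 and were far lower in 6419c5. Both were highest in KOB of 6694c2 and close to 0 in the KO lines of 6419c5. These differences between clones are what the genes were picked for. In bulk samples of this kind, fewer cells of a type and less RNA per cell cannot be told apart.

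Tff1, made by foveolar cells, measured 522, 537, 585 and 634 TPM in the 4 WT libraries of 6694c2. It measured 814, 483, 233 and 279 TPM in KOA and 3340.4, 6302, 4853 and 4367 TPM in KOB. The KOB libraries were all far above the others, while KOA spread around WT, with 1 library above and 3 below it. The mean in KOB was 4716 ± 1231 TPM (SD, n = 4), 8.28 times the WT mean of 569.5 ± 50.6 TPM (SD, n = 4), and placed Tff1 between rank 11 and rank 42 of all transcripts in those libraries. The 6419c5 libraries had 13.9, 16.2 and 12.7 TPM in WT, 0.766, 1.63 and 0 TPM in KOA and 1.62, 3.61 and 0.291 TPM in KOB. All 6 KO libraries lay below the 3 WT libraries. On the log2(TPM + 1) scale KOA less WT was −0.50 and KOB less WT 3.01 in 6694c2, against −3.19 and −2.60 in 6419c5. The order of the line means was KOB, WT and KOA of 6694c2, then WT, KOB and KOA of 6419c5, and the neighbours that overlapped were WT with KOA of 6694c2 and KOB with KOA of 6419c5.

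Tff2, which is typical of mucous neck and deep antral gland cells, measured 135, 237, 258 and 205 TPM in WT of 6694c2. It measured 996, 875, 363 and 378 TPM in KOA and 2589.8, 3713, 3020.4 and 2325 TPM in KOB. Unlike Tff1, it lay above the highest WT library in all 8 KO libraries of the clone, and the 3 lines did not overlap. The KOA mean was 3.13 times and the KOB mean 14.0 times the WT mean of 209 ± 54.0 TPM (SD, n = 4). In 6419c5 Tff2 measured 40.5, 27.7 and 44.5 TPM in WT, 0.530, 0.451 and 1.56 TPM in KOA and 1.17, 0 and 0 TPM in KOB. Every KO library was at or below 1.56 TPM, and the 2 KO lines overlapped. The log2(TPM + 1) differences from WT were 1.53 and 3.81 for KOA and KOB of 6694c2, and −4.41 and −4.87 for KOA and KOB of 6419c5.

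The balance of the 2 peptides differed between the lines of 6694c2. Tff1 was 2.26 to 3.88 times Tff2 in the WT libraries, 0.552 to 0.818 times in KOA and 1.29 to 1.88 times in KOB (ratio of TPM). These ranges do not overlap. In WT of 6419c5 the ratio was 0.285 to 0.584.

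Tff3, the trefoil factor of intestinal goblet cells, was a minor transcript in every line. It measured 0.412, 1.27, 1.71 and 0.919 TPM in WT, 0.473, 1.24, 0 and 0 TPM in KOA and 4.26, 5.62, 8.07 and 4.24 TPM in KOB of 6694c2. The KOB libraries lay above all others, and WT and KOA overlapped. The 3 WT libraries of 6419c5 had 1.90, 0.435 and 0.900 TPM, and Tff3 was listed at 0 in all 6 KO libraries of that clone. Tff3 was not picked on these contrasts and was tested with limma on log2(TPM + 1), with p-values adjusted by Benjamini-Hochberg over the 14337 genes and a call at an adjusted p under 0.05. It rose in KOB of 6694c2 (1.66 ± 0.27, SE, adjusted p 4.58e-05), was not called in KOA (−0.58, adjusted p 0.127) and fell in 6419c5 (−0.995 ± 0.27 for the mean of both KO lines, adjusted p 0.00571). That second call was lost when WT library 1 was left out (−0.72, adjusted p 0.0571) and with the line as a random effect (adjusted p 0.536).

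Gastrokines are small secreted proteins of foveolar cells whose expression is often lost in gastric cancer. Gkn1 and Gkn2 were low in WT and KOA of 6694c2 and reached high levels in KOB alone of the 6 lines. In 6419c5 they were also low in WT and lower still in both lines labelled EPHA2-KO.

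Gkn1, whose promoter is shown above, measured 0.788, 0, 0.408 and 1.04 TPM in WT of 6694c2. It measured 4.53, 0.508, 0.0914 and 0.191 TPM in KOA and 16.7, 81.0, 52.5 and 48.1 TPM in KOB. KOA overlapped WT apart from its library 1, and KOB stood clear of both. The KOB mean of 49.6 ± 26.4 TPM (SD, n = 4) was 88.6 times the WT mean. In 6419c5 Gkn1 measured 4.92, 8.26 and 4.01 TPM in WT, 0.0832, 0.354 and 0.509 TPM in KOA and 0.157, 0.176 and 0.273 TPM in KOB. All 6 KO libraries were below WT, and KOA and KOB overlapped. The log2(TPM + 1) differences from WT were 0.27 and 4.87 in KOA and KOB of 6694c2, and −2.32 and −2.44 in KOA and KOB of 6419c5.

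Gkn2, which forms a complex with TFF1 in gastric mucus, measured 1.20, 2.24, 2.94 and 9.08 TPM in WT of 6694c2. It measured 4.14, 1.58, 0.509 and 0.535 TPM in KOA and 121, 488, 369 and 332 TPM in KOB. Again KOA overlapped WT and every KOB library was higher. The KOB mean of 327 ± 153 TPM (SD, n = 4) was 84.8 times the WT mean of 3.86 ± 3.55 TPM. In 6419c5 Gkn2 measured 5.38, 9.12 and 1.36 TPM in WT, was listed at 0 in all 3 KOA libraries and measured 0.431, 0 and 0 TPM in KOB. In 6694c2 its log2(TPM + 1) difference from WT was −0.80 for KOA against 6.16 for KOB, and in 6419c5 −2.42 against −2.25. The ratio of the 2 neighbours varied little in KOB of 6694c2, where Gkn2 was 6.02 to 7.24 times Gkn1, while in WT of 6419c5 the ratio was 0.340 to 1.10.

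For Tff1, Gkn1 and Gkn2 the higher mean of the KO lines in 6694c2 thus rested on KOB, and for Tff2 both lines were higher. The KO effect in 6694c2, the mean of both lines less WT on the log2(TPM + 1) scale, was 1.26 for Tff1, 2.67 for Tff2, 2.57 for Gkn1 and 2.68 for Gkn2. The KO effect in 6419c5 was −2.89, −4.64, −2.38 and −2.33 in the same order. With a pseudocount of 0.1 TPM in place of 1 the 6419c5 values were −4.07, −6.39, −4.07 and −4.99, and Gkn1 in 6694c2 was 3.45. Both KO lines of a clone share their WT libraries.

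**Figure D2:**
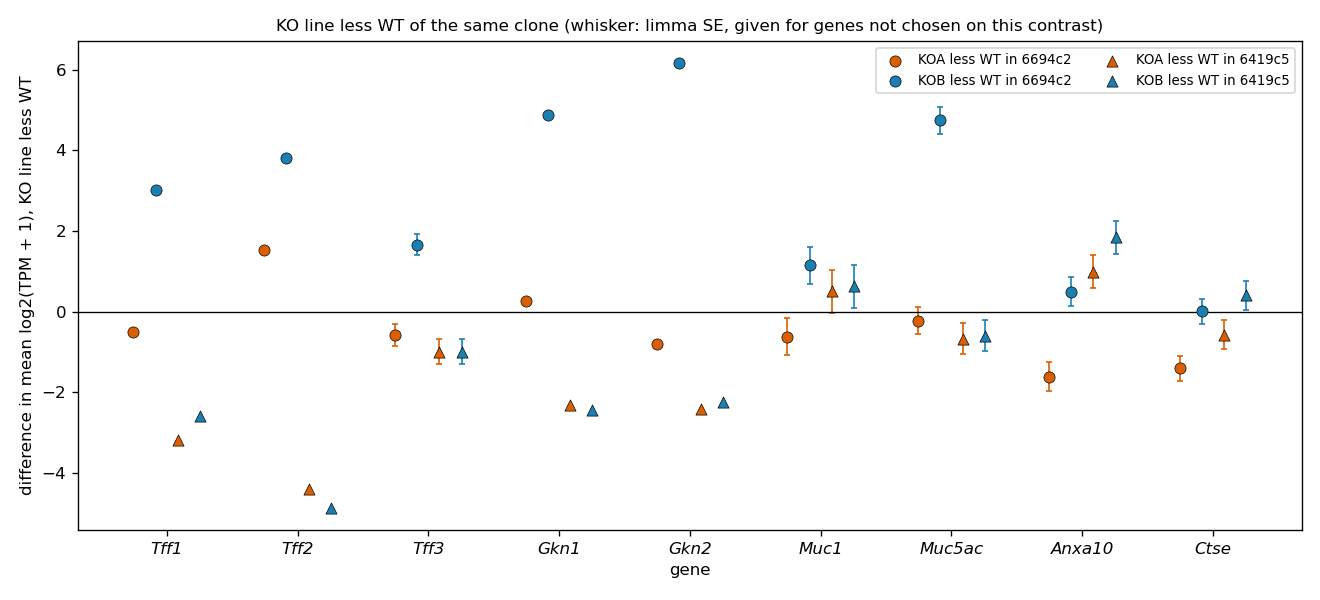
Difference of each KO line from WT of its clone in mean log2(TPM + 1), for the 9 genes that passed the filter; circles are 6694c2, triangles 6419c5, orange KOA, blue KOB, and whiskers the limma SE, left out for the 4 genes picked on this contrast. KOA and KOB of 6419c5 lie close together for the trefoil factors and gastrokines, while for Tff1, Gkn1 and Gkn2 KOA of 6694c2 lies between −0.80 and 0.27 and KOB between 3.01 and 6.16.

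Mucins are heavily O-glycosylated proteins, some secreted as gels and some anchored in the apical membrane. In 6694c2 Muc5ac was high in KOB alone, like the gastrokines, and Muc1 was abundant in every line. Muc6 was near 0 in all libraries.

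Muc5ac, the gel-forming mucin of foveolar cells, measured 3.55, 5.14, 4.37 and 5.36 TPM in WT of 6694c2. It measured 4.98, 0.902, 5.54 and 5.86 TPM in KOA and 94.7, 256, 148 and 133 TPM in KOB. WT and KOA overlapped, with KOA library 2 far below the other 3, and KOB was 34.3 times WT in the mean. Muc5ac rose in KOB (4.74 ± 0.33, SE, log2, adjusted p 3.26e-09 by limma) and was not called in KOA (−0.23, adjusted p 0.674). The mean over both lines was called (2.26, adjusted p 8.0e-06), but not with the line as a random effect (adjusted p 0.524), and the exact permutation test over libraries gave p = 0.154. Its levels in 6419c5 were 0.290, 1.23 and 0.432 TPM in WT, 0, 0.00814 and 0 TPM in KOA and 0.0927, 0.0732 and 0.00802 TPM in KOB. All 6 KO libraries were below WT (exact two-sided permutation p = 0.0238), and limma did not call the difference (−0.64 ± 0.33, adjusted p 0.135) unless a pseudocount of 0.1 TPM was used (−2.38, adjusted p 6.57e-04), the fit was made on the clone's own libraries (adjusted p 0.0205), or KOA library 2 of 6694c2 (0.0270) or KOA libraries 1 and 2 (0.0302) were left out. A pseudocount of 1 understates the change of genes this low.

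Muc1, a membrane mucin of most glandular epithelia, was abundant in both clones and highest in 6419c5. It measured 45, 38.9, 43.5 and 39.5 TPM in WT, 76.2, 51.3, 9.86 and 12.4 TPM in KOA and 109.9, 109, 95.2 and 66.1 TPM in KOB of 6694c2. KOA divided into libraries 1 and 2 above WT and libraries 3 and 4 below it, and KOB lay above WT throughout. Muc1 rose in KOB (1.14 ± 0.46, SE, log2, adjusted p 0.0457 by limma), and the mean over both KO lines was not called (0.26 ± 0.39, adjusted p 0.646). That mean was 0.86 without KOA libraries 3 and 4 (adjusted p 0.00495) and −0.34 without KOA libraries 1 and 2 (adjusted p 0.219). In 6419c5 Muc1 measured 96.5, 186 and 92.9 TPM in WT, 152, 148 and 211 TPM in KOA and 221, 216 and 129 TPM in KOB. The lines overlapped and the KO effect was not called (0.56 ± 0.46, adjusted p 0.341).

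Muc6, the gel-forming mucin of gastric glands, did not pass the filter and was described without limma. It measured 0.206, 0.0941, 0.0714 and 0.114 TPM in WT, 0.213, 0.451, 0.448 and 0.276 TPM in KOA and 0.371, 0.598, 0.831 and 0.439 TPM in KOB of 6694c2. All 8 KO libraries lay just above WT (exact two-sided permutation p = 0.00404 on log2(TPM + 1)), at levels under 1 TPM. In 6419c5 it ranged from 0.0866 to 0.452 TPM over all 9 libraries, and the lines overlapped (exact permutation p = 0.714). Together 12 such KO against WT tests were made for the 6 genes not picked on the contrast, with no adjustment.

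Anxa10 and Ctse mark gastric-type epithelium and are widely used for precursor lesions of the pancreas with that differentiation. In 6419c5 neither was lower in both KO lines, as the trefoil factors and gastrokines were, and Anxa10 was higher there. Within 6694c2 both had their lowest mean in KOA, as Tff1, Tff3 and Gkn2 did.

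Anxa10, an annexin (a calcium-dependent lipid-binding protein) of the gastric mucosa, measured 41.6, 29.5, 32.3 and 44.7 TPM in WT, 26.8, 15.5, 5.46 and 6.55 TPM in KOA and 48.5, 56.8, 48.1 and 54.7 TPM in KOB of 6694c2. All 4 KOA libraries lay below WT and all 4 KOB libraries above it. Anxa10 fell in KOA (−1.62 ± 0.36, SE, log2, adjusted p 0.00317 by limma) and was not called in KOB (0.50, adjusted p 0.266). Its levels in 6419c5 were 13.8, 34.9 and 13.4 TPM in WT, 44.5, 39.1 and 32.1 TPM in KOA and 60.5, 68.1 and 82.1 TPM in KOB. WT library 2 lay within the range of KOA, and KOB lay above both other lines. The KO effect there was called (1.42 ± 0.36, adjusted p 0.00361, exact permutation p = 0.0476), but not with the line as a random effect (adjusted p 0.439). Tumour epithelial markers were also higher in these KO lines, as given above, and their part in the difference was not tested.

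Ctse, the gastric aspartic protease cathepsin E, measured 416, 346, 334 and 397 TPM in WT, 223, 232, 79.3 and 92.0 TPM in KOA and 382, 388, 406 and 327 TPM in KOB of 6694c2. KOA lay below WT in 4 of 4 libraries, and KOB overlapped WT. Ctse fell in KOA (−1.41 ± 0.31, SE, log2, adjusted p 0.00344 by limma) and was not called in KOB (0.01, adjusted p 0.984). Its levels in 6419c5 were 146, 249 and 123 TPM in WT, 94.7, 80.9 and 174 TPM in KOA and 239, 250.1 and 173 TPM in KOB. The 3 lines overlapped, and the KO effect was not called (−0.09 ± 0.31, adjusted p 0.847).

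Counted over the 5 tested genes that were not picked on the contrast, 1 (Muc5ac) was called higher and 0 lower for the KO effect in 6694c2, where 37.4% of all tested genes were called. Ctse (−0.70, adjusted p 0.0505 by limma), Tff3 (0.54, adjusted p 0.0758) and Anxa10 (−0.56, adjusted p 0.167) were not called there, but were under 9 of 33, 4 of 32 and 2 of 33 alternative settings, with adjusted p ranging from 7.84e-04 to 0.849 for Ctse, from 0.0130 to 0.907 for Tff3 and from 0.00197 to 0.932 for Anxa10. For the KO effect in 6419c5 1 was called higher (Anxa10) and 1 lower (Tff3), where 41.4% of all genes were called. Against WT of 6694c2, 2 of the 5 (Anxa10 and Ctse) were called lower in KOA, where 7.56% of all genes were, and 3 (Muc5ac, Tff3 and Muc1) higher in KOB, where 29.2% were. Against WT of 6419c5, Tff3 was called lower in KOA, where 12.7% of all genes were, and KOB had 1 higher (Anxa10) and 1 lower (Tff3), where 43.3% were called in either direction. Every KOB library of 6694c2 lay above every WT library for 8 of the 9 tested genes, as for 28.9% of all tested genes, and every KO library of 6419c5 below every WT library for 6 of the 9, as for 9.99%. These 2 counts include the 4 genes picked on the contrast and are a description. The KO effects themselves differed between the clones for Muc5ac (2.90 ± 0.44, SE, adjusted p 9.81e-05), Tff3 (1.53 ± 0.35, adjusted p 0.00324) and Anxa10 (−1.98 ± 0.47, adjusted p 0.00419), 3 of 5, where 28.6% of all genes were called. Muc5ac and Tff3 were more positive in 6694c2, and Anxa10 more negative. With the line as a random effect none of these calls remained (adjusted p 0.779, 0.842 and 0.805 for the difference), as only 1 WT and 2 KO lines per clone then carry the comparison.

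KOA against KOB compares 2 lines labelled EPHA2-KO of the same clone without any WT library. This contrast was not used to pick genes, but Tff1, Tff2, Gkn1 and Gkn2 were picked on values of the same libraries. Calls for these 4 genes are therefore no independent support. In 6694c2 all 9 tested genes were lower in KOA than in KOB. All 9 were called, and so were all 5 not picked (Muc5ac, Tff3, Anxa10, Ctse and Muc1), where 23.6% of all tested genes were called lower. The differences on the log2 scale ran from −1.42 ± 0.31 for Ctse (SE, adjusted p 0.00113 by limma) to −6.96 ± 0.51 for Gkn2. Those of the other secreted products were −4.97 for Muc5ac, −4.61 for Gkn1, −3.52 for Tff1, −2.28 for Tff2 and −2.24 for Tff3, larger in size than −2.11 for Anxa10 and −1.77 for Muc1. Each of the 9 genes also passed the filter without the KOB libraries of 6694c2. For 8 of the 9 every KOA library lay below every KOB library, a count that includes the 4 picked genes. Among the 6 genes not picked this held for 4 (exact permutation p = 0.0286, the smallest that 4 against 4 allows), where 19.1% of tested genes did so. Muc1 (exact permutation p = 0.0571) overlapped, as did Muc6 (exact permutation p = 0.171). In 6419c5 none of the 9 genes was called between KOA and KOB, where 17.4% of all genes were called, and at an unadjusted limma p under 0.05 only Ctse passed (−0.98, adjusted p 0.0703). Ctse was called when KOA library 3 of 6419c5 was left out (−1.30, adjusted p 0.0289), one of 5 such cases among 32 alternatives (adjusted p 0.0125 to 0.222). Anxa10 (−0.85, adjusted p 0.17), lower in every KOA than in every KOB library, was called under 2 of 32 alternatives, without KOA libraries 3 and 4 of 6694c2 (adjusted p 0.0449) or 1 and 2 (adjusted p 0.0308). Exact permutation tests, of which 20 were made over both clones, gave at least 0.1 there, the smallest that 3 against 3 allows.

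Fibroblast, pericyte and endothelial markers also differed in this contrast. The 8 fibroblast and pericyte markers summed to 195 to 711 TPM in KOA of 6694c2 and 55.6 to 93.3 TPM in KOB, against 190.0 to 283 TPM in WT, and KOB did not overlap either line. Of these markers 6 of 8 were called higher in KOA than in KOB, as were 3 of 3 tested endothelial and 2 of 14 tested leukocyte markers. Over all 14337 tested genes 6673 were called in either direction, of which 3385 were lower in KOA (23.6% of the 14337) and the rest higher. Most leukocyte markers were not called. The leukocyte sum was 212 to 1032 TPM in KOA and 77.6 to 378 TPM in KOB. Tumour epithelial markers summed to 6471 to 8760 TPM in KOA and 7341 to 8389 TPM in KOB, which overlap. The part of these cells in the differences between KOA and KOB was not tested.

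**Figure D3:**
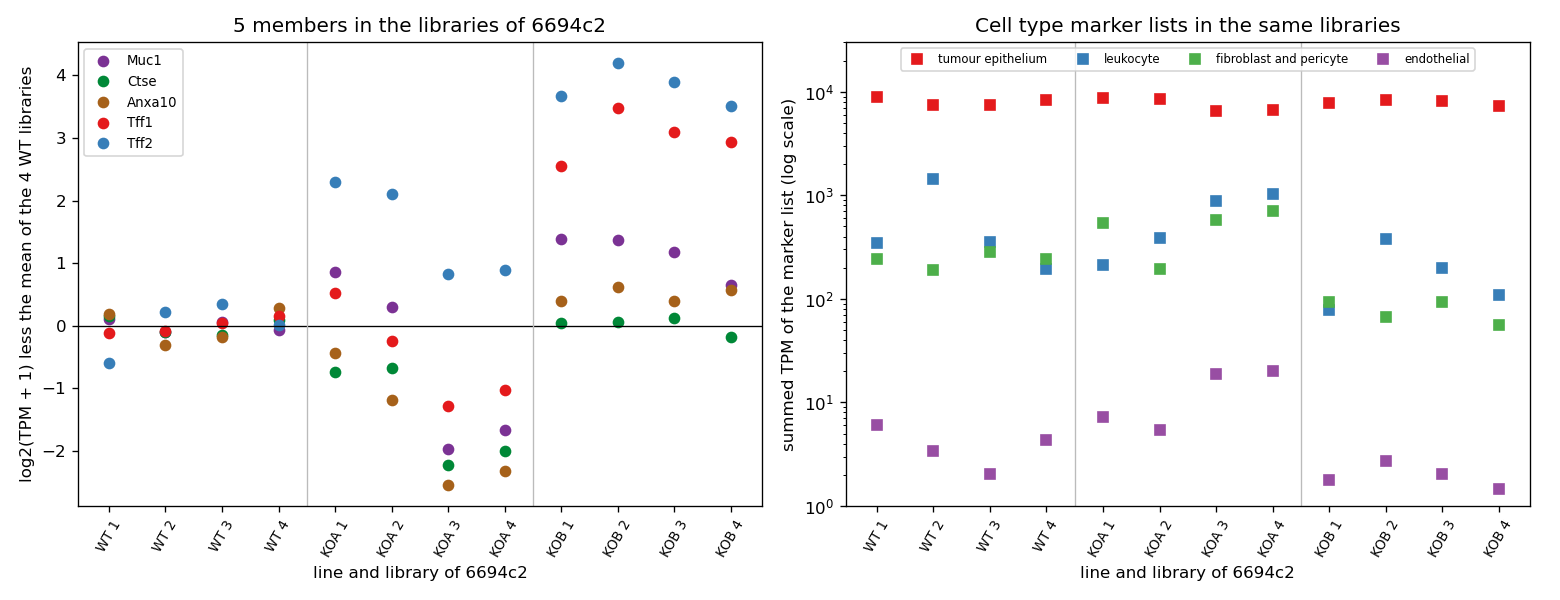
The 12 libraries of 6694c2: on the left log2(TPM + 1) of 5 genes less the mean of the 4 WT libraries, on the right the summed TPM of 4 cell type marker lists (log axis). KOA libraries 3 and 4 lie below libraries 1 and 2 for all 5 genes and hold more leukocyte and endothelial marker transcripts.

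The KOA libraries of 6694c2 were not alike. Libraries 3 and 4 were lower than libraries 1 and 2 for Tff1, Tff2, Gkn1, Gkn2, Muc1, Anxa10 and Ctse, with Muc1 at 9.86 and 12.4 TPM against 76.2 and 51.3 TPM. For Muc5ac the order was another, with library 2 lowest. Beside this, leukocyte markers summed to 212, 389, 882 and 1032 TPM in KOA libraries 1 to 4, endothelial markers to 7.22, 5.41, 19.0 and 20.3 TPM, fibroblast markers to 536, 195, 580 and 711 TPM and tumour epithelial markers to 8760, 8551, 6471 and 6706 TPM. None of the markers of these 4 lists was at 0 in all KOA libraries. Their part in the values of the 10 genes was not tested. Without KOA libraries 3 and 4, Muc1 was no longer called between KOA and KOB (−0.57, adjusted p 0.136 by limma), and without libraries 1 and 2 Ctse (−1.05, adjusted p 7.84e-04) and Anxa10 (−0.96, adjusted p 0.00197) were called for the KO effect in 6694c2.

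Other cell type markers also moved with the groups in 6419c5. Leukocyte markers summed to 1016 to 2706 TPM in WT, 231 to 4649 TPM in KOA and 244 to 385 TPM in KOB, and fibroblast markers to 991 to 1954, 501 to 613 and 1254 to 1820 TPM. WT thus held more leukocyte transcripts than KOB and than 2 of the 3 KOA libraries, and more Tff1, Tff2, Gkn1 and Gkn2 than every KO library. KOA library 2 held 4649 TPM of leukocyte markers, above every WT library. It had Tff1 at 1.63, Tff2 at 0.451, Gkn1 at 0.354 and Gkn2 at 0 TPM. The part of these cells in the differences between the lines of 6419c5 was not tested.

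The WT lines of the 2 clones also differed. Of the 5 tested genes not picked on their KO effects, Muc5ac (1.79 ± 0.36, SE, log2, 6694c2 less 6419c5, adjusted p 0.000403 by limma), Ctse (1.17 ± 0.34, adjusted p 0.00719) and Anxa10 (0.93 ± 0.38, adjusted p 0.0497) were called higher in 6694c2 and Muc1 (−1.49 ± 0.49, adjusted p 0.0164) lower, where 53.5% of all genes were called. The call of Anxa10 was lost under 21 of 32 alternatives (adjusted p up to 0.623), that of Muc1 without WT library 2 of 6419c5 (−1.17, adjusted p 0.0922) and that of Ctse without the 2 libraries of highest Mir6236 (0.96, adjusted p 0.0514). None of the 4 was called once the line was a random effect (adjusted p 0.469 for Muc5ac, 0.426 for Ctse, 0.623 for Anxa10 and 0.469 for Muc1). Summed over the 10 genes, WT of 6694c2 had 1241 ± 75.8 TPM, KOA 1321 ± 705 TPM and KOB 8691 ± 2036 TPM (SD over 4 libraries each). The sum in 6419c5 was 383 ± 131 TPM for WT, 328 ± 79.9 TPM for KOA and 483 ± 85.0 TPM for KOB (SD over 3 libraries each). The trefoil pair Tff1 and Tff2 made up 56.4% to 66.8% of that sum in WT of 6694c2, 81.7% to 85.5% in KOA and 87.4% to 88.4% in KOB. In 6419c5 the pair made up 8.22% to 19.5% in WT and at most 0.766% in either KO line, where Muc1, Anxa10 and Ctse carried nearly all of the sum.

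Genes beside the members were compared to see how far along the chromosome the differences reached. Of 18 neighbours, 3 on each side of the trefoil, gastrokine and mucin loci, 12 were tested. For the KO effect in 6694c2 6 were called higher and 0 lower (median 0.24, against 0.07 over all tested genes), and in 6419c5 3 were called higher and 1 lower (median 0.06, against 0.08). The share of all genes with a higher call was 23.9% in 6694c2 and 26.5% in 6419c5, and with a lower call 13.5% and 15%. Gkn3, another gastrokine 3.8 kb beyond Gkn2, went the way of its neighbours. In 6694c2, WT had 0.192 ± 0.294 TPM of it, KOA 1.11 ± 1.60 TPM and KOB 1.86 ± 1.19 TPM (SD over 4 libraries each). In 6419c5, WT had 9.42 ± 3.45 TPM, KOA 0.425 ± 0.387 TPM and KOB 0.134 ± 0.140 TPM (SD over 3 libraries each). Gkn3 rose in the KO lines of 6694c2 (0.89 ± 0.33, SE, log2, adjusted p 0.0402 by limma) and fell in those of 6419c5 (−3.01 ± 0.38, adjusted p 5.98e-06), but it was not called between KOA and KOB of 6694c2 (−0.59, adjusted p 0.215), where Gkn1 and Gkn2 were. On the other side of Gkn1, Gfpt1, the entry enzyme of hexosamine synthesis, rose in both clones (0.68 in 6694c2, adjusted p 2.13e-04, and 0.65 in 6419c5, adjusted p 0.00101), as did D6Ertd527e (0.55, adjusted p 0.0141, and 0.86, adjusted p 0.00163). The 2 tested neighbours of the trefoil genes, Abcg1 and Rsph1, were not called in either clone. Muc5b, a gel-forming mucin next to Muc5ac, rose in 6694c2 (1.23 ± 0.35, adjusted p 0.00887) but measured 6.07 ± 5.18 TPM in KOA and 2.79 ± 0.469 TPM in KOB (SD, n = 4 each), and was not called between them (adjusted p 0.288).

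**Figure D4:**
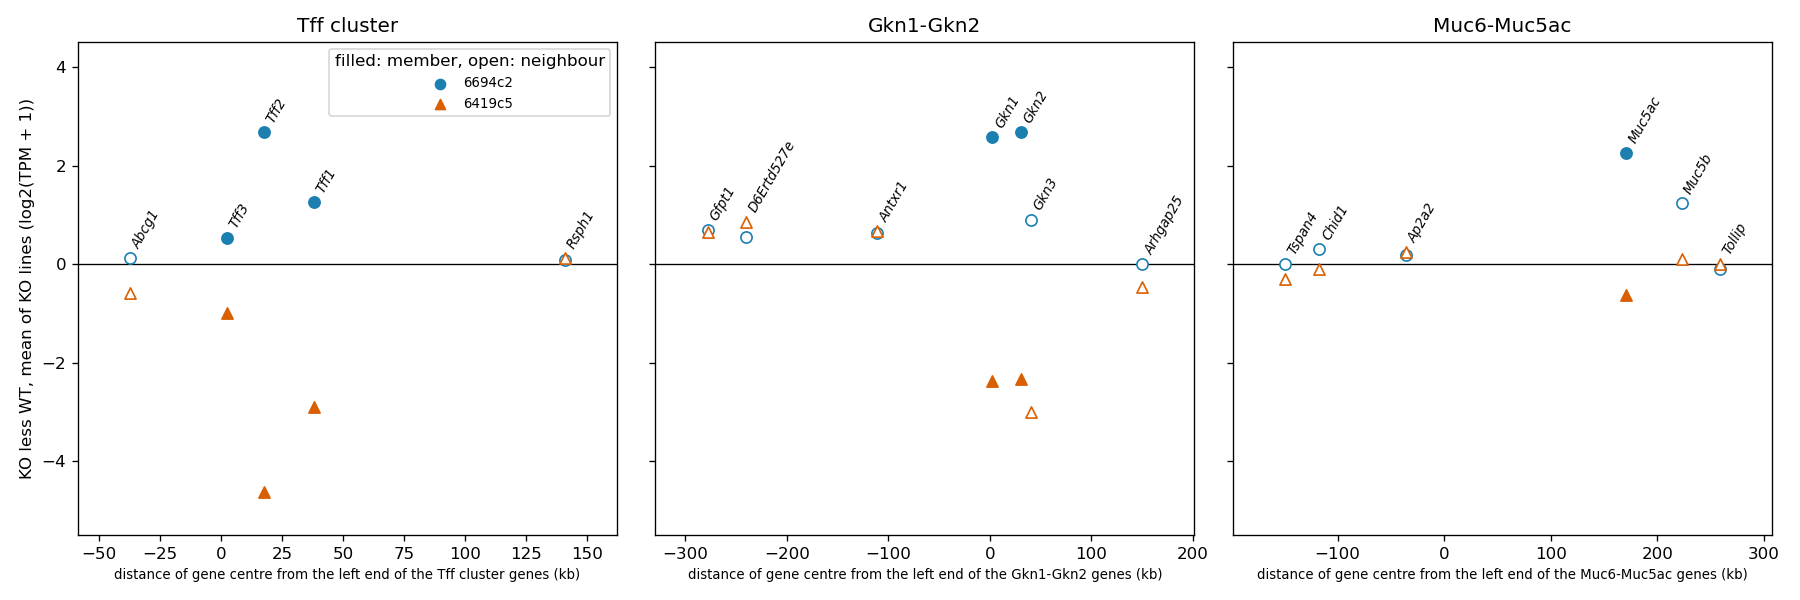
KO effect (mean of both KO lines less WT, log2(TPM + 1)) of members (filled) and tested neighbours (open) by distance of the gene centre along 3 loci, circles for 6694c2 and triangles for 6419c5. Gkn3 lies on the same sides of 0 as Gkn1 and Gkn2, and the other open points, Muc5b apart, lie between −0.58 (Abcg1) and 0.86 (D6Ertd527e).

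Further genes of gastric pit cells and gastric-type tumours were counted as a list of 20, of which 14 were tested. In 6694c2 10 were called higher and 0 lower (median 0.79, against 0.07 over all tested genes), against the same 23.9% and 13.5% of all genes. In 6419c5 6 were called higher and 3 lower (median 0.60, against 0.08), where 26.5% and 15% of all genes were. Between KOA and KOB of 6694c2 8 of the 14 were called lower and 0 higher (median −1.08, against 0.01), where 23.6% of all tested genes were called lower. Pgc, the pepsinogen of gastric chief and mucous neck cells, was low in every line, with WT of 6694c2 at 0.125 ± 0.0704 TPM, KOA at 1.26 ± 1.37 TPM and KOB at 4.0 ± 1.54 TPM (SD over 4 libraries each). WT of 6419c5 was at 7.97 ± 3.26 TPM, KOA at 1.07 ± 0.321 TPM and KOB at 0.889 ± 0.367 TPM (SD over 3 libraries each). Unlike Gkn1 and Gkn2, Pgc was higher in every KOA library than in every WT library of 6694c2 (0.312 TPM and above against at most 0.218 TPM). Its highest line mean was that of WT of 6419c5, as for Gkn3 but not for Gkn1 and Gkn2. Pgc rose in 6694c2 (1.47 ± 0.27, SE, adjusted p 0.000369 by limma) and fell in 6419c5 (−2.13 ± 0.32, adjusted p 3.21e-05). Pigr, the receptor that carries antibodies across epithelia, rose in 6694c2 (2.26 ± 0.48, adjusted p 0.00116) and was not called in 6419c5 (−0.46, adjusted p 0.535). Lyz1, a lysozyme, fell in 6419c5 (−2.73 ± 0.71, adjusted p 0.00453), but its near-identical copy Lyz2, a macrophage gene, could share reads with it and measured 817 ± 312 TPM in WT and 98.4 ± 32.1 TPM in KOB there (SD, n = 3 each).

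**Figure D5:**
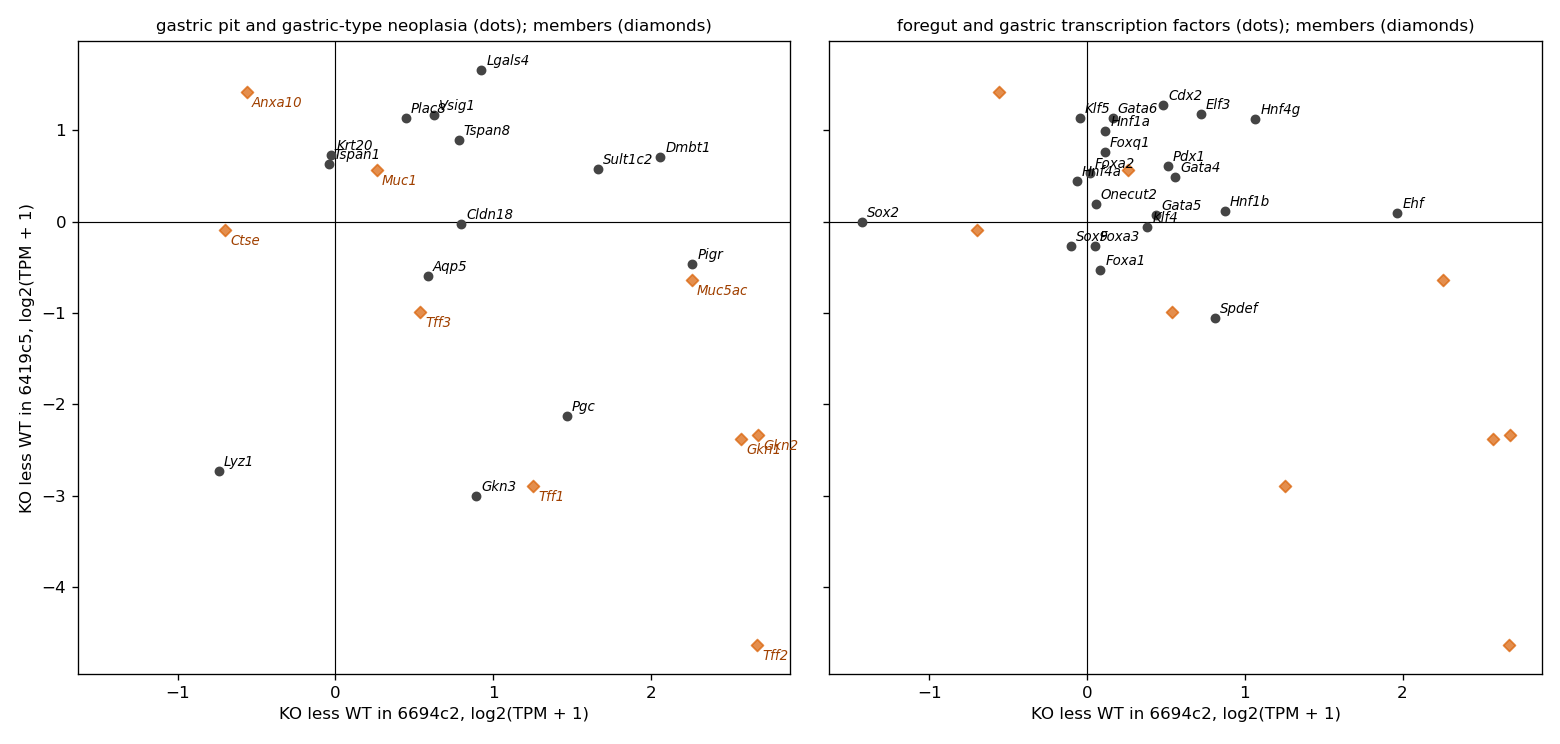
KO effect in 6419c5 against KO effect in 6694c2 (log2(TPM + 1)) for tested genes of the gastric pit list (left) and of the list of foregut transcription factors (right), with the 9 tested members as diamonds. Of the listed genes with a call in both clones, Gkn3 and Pgc (left) and Spdef (right) fall in the lower right quadrant. The members Tff1, Tff2, Tff3, Gkn1, Gkn2 and Muc5ac also lie there, as do Pigr, Aqp5 and Cldn18 of the gastric pit list, which were not called in 6419c5.

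Genes that fold and glycosylate mucins were counted next. Of 27, 21 were tested, with 8 called higher and 4 lower in 6694c2 (median 0.17) and 6 higher and 3 lower in 6419c5 (median −0.05). Against the shares of all genes with a higher call (23.9% and 26.5%) and a lower call (13.5% and 15%) in the 2 clones, the 6419c5 counts were near the background. Agr2, a disulfide isomerase needed to fold gel-forming mucins, rose in 6694c2 (3.25 ± 0.45, SE, log2, adjusted p 1.98e-05 by limma), from 0.573 ± 0.718 TPM in WT to 15.3 ± 9.61 TPM in KOA and 15 ± 3.43 TPM in KOB (SD, n = 4 each). Unlike Muc5ac it was not called between KOA and KOB (−0.36, adjusted p 0.606). Ern2, the stress sensor of mucus-secreting cells, and Fut2, which adds the terminal fucose of mucin glycans, rose in 6694c2 (1.23, adjusted p 8.7e-06, and 1.66, adjusted p 0.000148). Both were higher in KOB than in KOA, with Fut2 at 2.75 ± 2.39 TPM in KOA and 22.3 ± 5.48 TPM in KOB (SD, n = 4 each) and adjusted p 1.59e-06 for Fut2 and 5.82e-08 for Ern2 between the lines. C1galt1, which makes the core 1 O-glycan, rose in 6419c5 (1.16, adjusted p 4.59e-05). Of 16 other mucins, 5 were tested. Besides Muc5b in 6694c2, the calls were Muc13, a membrane mucin, higher in 6419c5 (1.51, adjusted p 1.52e-06), and Mucl1, lower there (−1.03, adjusted p 0.0135).

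Transcription factors of foregut and stomach were listed as 26, of which 21 were tested. In 6694c2 10 were called higher and 1 lower (median 0.16), where 23.9% and 13.5% of all genes were. In 6419c5 11 were called higher and 2 lower (median 0.45), where 26.5% and 15% of all genes were. Ehf, an ETS factor of epithelia, rose in 6694c2 (1.97 ± 0.13, SE, log2, adjusted p 2.89e-09 by limma) from 3.85 ± 0.367 TPM in WT to 18 ± 2.69 TPM in KOA and 18.3 ± 3.98 TPM in KOB (SD, n = 4 each), a difference shared by both lines. Sox2, a factor of the foregut and of the stomach, was lowest where the gastrokines were highest in that clone. It measured 7.94 ± 1.09 TPM in WT, 7.27 ± 0.423 TPM in KOA and 0.329 ± 0.145 TPM in KOB (SD, n = 4 each), and was higher in KOA than in KOB (2.64 ± 0.10, adjusted p 4.87e-12). In 6419c5 Sox2 was at most 0.0376 TPM. Cdx2, the intestinal homeobox factor, rose in both clones (0.48, adjusted p 0.00409, and 1.28, adjusted p 1.12e-06), as did Elf3, another epithelial ETS factor (0.72, adjusted p 0.0357, and 1.18, adjusted p 0.00416). Spdef, a factor of mucus-secreting cells named here after its values were seen, rose in 6694c2 (0.81, adjusted p 0.0341) and fell in 6419c5 (−1.06, adjusted p 0.0163), at means of at most 2.18 TPM.

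Receptors and partners reported for trefoil factors and mucins were 12, with 9 tested. In 6694c2 2 were called higher and 4 lower (median −0.12), where 23.9% and 13.5% of all genes were. In 6419c5 3 were called higher and 1 lower (median 0.12), where 26.5% and 15% of all genes were, so the counts called higher were near the share of all genes in both clones. Erbb2, a receptor kinase that can pair with membrane mucins, rose in both clones (0.80, adjusted p 1.22e-06, and 1.26, adjusted p 2.51e-08 by limma), as did F2rl1 (0.34, adjusted p 0.0118, and 1.09, adjusted p 9.08e-07), a protease-activated receptor. Lingo2, described as a TFF3 receptor, fell in both (−0.79, adjusted p 0.00135, and −1.04, adjusted p 0.000378). Ackr3, an atypical chemokine receptor, fell in 6694c2 (−1.04, adjusted p 1.89e-06).

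The tested genes most like Tff2 in log2(TPM + 1) over the 21 libraries were, by Pearson's r, Crp (0.971), Reg3b (0.967), Itpr2 (0.966), Rpl3 (0.963), Bcl11b (0.962) and Epha7 (0.960). Among the members, Tff1 had r = 0.967 with Tff2, Muc5ac 0.832, Tff3 0.755, Gkn2 0.737, Gkn1 0.622 and Ctse 0.474, while Anxa10 had −0.257 and Muc1 −0.545. Reg3b, a secreted lectin, had its highest mean in KOA of 6694c2 (156 ± 113 TPM, SD, n = 4) and not in KOB (143 ± 20.7 TPM), while Crp, an acute phase protein, had 25.2 ± 3.09 TPM in KOB. Those most like Muc1 were Sqor (0.942), Dok4 (0.938), Camsap3 (0.932), Kank1 (0.929), Cpne2 (0.925) and Gcnt3 (0.918). Over all libraries Muc1 and Anxa10 had r = 0.694. The libraries of a line and of a clone share their origin, so these values describe mostly the contrast between 6 lines.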

How the data were processed

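Tumour cells sorted from implanted tumours were profiled by RNA sequencing, in 21 libraries of 6 lines. The deposited values are gene-level TPM, made by the authors with Salmon against mm10 (no version stated), per the submitters' processing notes. How transcripts were summed to genes, and on which annotation, is not given in the sources used here. TPM keeps no depth, so no counting error can be given, and precision is the spread between libraries.

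A pseudocount of 1 TPM was added before taking log2. The 14337 genes that reached 1 TPM in 3 or more libraries entered 1 limma model (lmFit, contrasts, eBayes with trend) with a mean per line over all libraries, tested on simulated data first. Software was limma 3.58.1 with statmod 1.5.0 (R 4.3.3), and scipy 1.17.1, pandas 2.3.3, numpy 2.4.6 and matplotlib 3.10.9 (Python 3.11.15). Tests were two-sided, Benjamini-Hochberg adjusted over all tested genes, and called under 0.05. A KO effect averages the 2 KO lines and subtracts WT. Single genes were also compared by exact two-sided permutation over libraries. Gene positions, neighbours and promoters came from RefSeq, and strands and exon numbers from the GENCODE annotation.

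The 10 genes and all gene lists were chosen with earlier results of these data known. All 10 genes were named whatever their values, and of each list up to 4 genes with the largest absolute fold change among those called. Alternatives were the pseudocount, the filter, other scalings, each library left out, the replicate number as a block, each clone fitted alone, the line as a random effect and eBayes without trend. Leaving out KOA libraries 1 and 2, or 3 and 4, of 6694c2 was added after seeing the data.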

Additional observations from a re-analysis of the deposited data

Results flagged for a closer look

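In KOA of 6694c2, Muc5ac library 2 lay far below the other 3 libraries, at 0.902 TPM against 4.98 to 5.86 TPM. The gap was 0.893 of the range of the group. Chance alone sets such a library apart in about 1 in 20 groups, and 30 groups of 4 libraries were looked at.

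The KO effect differed between the clones, by limma's test of the difference itself (6694c2 less 6419c5, log2 scale), for 3 of 5 genes tested, where 28.6% of all tested genes were called. The difference was −1.98 for Anxa10 (adjusted p 0.00419), 2.90 for Muc5ac (adjusted p 9.81e-05) and 1.53 for Tff3 (adjusted p 0.00324). Anxa10 was higher in the KO lines of 6419c5 (1.42) and lower in KOA of 6694c2 (−1.62). Muc5ac and Tff3 were higher in KOB of 6694c2. In the KO lines of 6419c5 Tff3 was called lower (−0.995, adjusted p 0.00571 by limma), and Muc5ac was not called (−0.64). These 3 differences share the limits given above, since none was called with the line as a random effect.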

How the results depend on the processing

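Over 54 results for single members, 1740 alternative values were computed, of which 1656 kept their direction and their side of the threshold, 34 lost a call, 29 gained one, 10 untested values moved by more than the spread and 11 changed sign. The 10 that moved were values of Tff1, Tff2, Gkn1 and Gkn2 with a pseudocount of 0.1 TPM, each farther from 0, up to −4.99 from −2.33 for the Gkn2 KO effect in 6419c5. The changes of sign, on the log2 scale, concerned values near 0 or KOA of 6694c2. With single libraries left out, the Ctse KO effect in 6419c5 ran from −0.30 to 0.21, above 0 without WT library 2 (0.21) or KOA library 2 (0.021). The Gkn2 difference between the WT lines ran from −0.97 to 0.079 (without WT library 2 of 6419c5), and Muc1 between KOA and KOB of 6419c5 from −0.38 to 0.010 (without KOB library 1). The Tff3 difference between WT lines ran from −0.22 to 0.29, below 0 without WT library 2 (−0.036) or 3 (−0.12) of 6694c2 or WT library 2 (−0.22) or 3 (−0.015) of 6419c5, and was −0.015 without the 2 libraries of highest Mir6236. The Muc1 KO effect in 6694c2 was −0.34 without KOA libraries 1 and 2, and its difference between clones 0.30 without KOA libraries 3 and 4.

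The number of genes called was 5361, 5942, 4104 and 7669 for the KO effect in 6694c2, in 6419c5, their difference and WT against WT, and with the line as a random effect 130, 589, 39 and 1328, since few lines then carry each comparison. For KOA against KOB in 6419c5 2501 genes were called, 1350 in a fit of that clone alone and 1574 to 2844 when single libraries were left out. With single libraries left out the counts ran from 4418 to 5661, 5036 to 6303, 3487 to 4421, 6723 to 7964 and, for KOA against KOB in 6694c2 (6673), 5774 to 7073.

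With the replicate number as a replicate block, 5132 genes were called for the KO effect in 6694c2, 5820 in 6419c5, 3859 for the difference and 7405 between the WT lines, and KOA against KOB gave 6514 in 6694c2 and 2214 in 6419c5. Libraries of the same number in other lines had correlations of their deviations from −0.17 to 0.46 (median 0.03). Those of another number in other lines had −0.35 to 0.29 (median −0.02). Whether libraries of the same number share more than the number was not tested. Depth is unknown, so genes near 0 TPM, such as Muc6, Tff3, Muc5ac and the gastrokines and trefoil factors in the KO lines of 6419c5, rest on the pseudocount.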

Other observations

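Intestinal markers, which the account above gives only for Cdx2, were counted as a list of 13 genes, of which 8 were tested. In 6419c5, where the gastric trefoil factors and gastrokines were near 0 in the KO lines, 6 of the 8 were called higher and 0 lower for the KO effect (median 1.08 on the log2 scale, against 0.08 over all tested genes), where 26.5% of all genes were called higher. Their sum was 409 to 736 TPM in WT, 1254 to 1595 TPM in KOA and 989 to 1191 TPM in KOB, with no overlap between WT and the KO lines. In 6694c2 3 were called higher and 2 lower (median 0.16, against 0.07), where 23.9% and 13.5% of all genes were. The sum there was 642 to 724 TPM in WT, 532 to 848 TPM in KOA and 733 to 872 TPM in KOB. Of the markers, Cdx1 and Zg16 were at 0 in all libraries of WT and KOB of 6694c2 and of both KO lines of 6419c5. Lgals4, Cdx2 and Krt20 are also in the gastric pit or transcription factor lists. Tumour epithelial markers moved with this in 6419c5, with 5 of 8 called higher and 1 lower for the KO effect there, where 26.5% and 15% of all genes were. The part of these epithelial markers in the intestinal marker differences was not tested.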
